A study of Homo sapiens with 12 samples.

Results

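The genes described here are 32 genes that flank IL1RN on both sides of chromosome 2, from MALL at the outer end of the one flank to DPP10 at the outer end of the other. They were chosen by position and not by how they moved, and all 32 were found among the 24395 features of the files. Messenger RNA was sequenced from HEK293T, an established line of embryonic kidney origin with SV40 large T antigen, and every library received guide RNAs for 4 sites at IL1RN. The groups differed in the dCas9 protein supplied by plasmid, with 3 libraries each. dCas9-p300 core carries the part of p300 that acetylates histones, dCas9-VP64 a viral activation domain, and dCas9-p300 D1399Y the same core with a change that removes its acetyltransferase activity. dCas9 alone, which binds DNA without cutting it, was the control. Plasmids were delivered with a lipid reagent (Lipofectamine) and cells were lysed in bulk, so each value mixes cells with and without the plasmids, and fewer expressing cells cannot be told apart from less RNA per cell. The question put to these genes was whether RNA from neighbours of the guide target differed along with it.

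IL1RN encodes the interleukin 1 receptor antagonist, which occupies the interleukin 1 receptor without starting a signal. It lies beside a cluster of related cytokine genes that arose by duplication. IL1A and IL1B encode the founding agonists, IL36A, IL36B and IL36G further agonists, IL36RN the antagonist of the interleukin 36 receptor, and IL37 and IL1F10 members with mostly dampening roles. Myeloid cells and keratinocytes are the usual sources of these proteins. The outer genes on either side serve unrelated, mostly general functions such as cell division, transcription and transport. Acetylation of histones by p300 marks active promoters and enhancers, and acetylated chromatin can extend past the site where the enzyme is placed.

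The start-site windows below are shown because they set the guide target beside its nearest neighbours: IL1F10 and PSD4 adjoin IL1RN, and CKAP2L is the nearest gene with ample RNA on the cytokine side. They are taken from RefSeq on GRCh38.p14, 250 bases before to 50 after a start, with CG dinucleotides in capitals. IL1RN has 3 such windows and IL1F10 2, and the first listed is shown. The counts rest on hg19, so these coordinates place the windows only. The sources used here do not give the positions of the guides.
CKAP2L, chr2:112764560-112764859, minus strand: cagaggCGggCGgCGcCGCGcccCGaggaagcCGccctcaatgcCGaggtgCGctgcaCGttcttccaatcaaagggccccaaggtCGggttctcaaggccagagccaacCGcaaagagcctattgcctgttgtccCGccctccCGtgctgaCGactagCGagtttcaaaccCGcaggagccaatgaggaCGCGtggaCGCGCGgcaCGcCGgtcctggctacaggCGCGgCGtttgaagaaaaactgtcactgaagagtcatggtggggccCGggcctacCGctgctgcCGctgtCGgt
IL1F10, chr2:113067720-113068019, plus strand: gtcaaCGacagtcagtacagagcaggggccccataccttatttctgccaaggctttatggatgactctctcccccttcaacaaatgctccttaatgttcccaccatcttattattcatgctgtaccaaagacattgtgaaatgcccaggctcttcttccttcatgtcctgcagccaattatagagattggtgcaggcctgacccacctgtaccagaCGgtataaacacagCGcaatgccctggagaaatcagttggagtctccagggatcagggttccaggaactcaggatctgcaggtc
IL1RN, chr2:113117721-113118020, plus strand: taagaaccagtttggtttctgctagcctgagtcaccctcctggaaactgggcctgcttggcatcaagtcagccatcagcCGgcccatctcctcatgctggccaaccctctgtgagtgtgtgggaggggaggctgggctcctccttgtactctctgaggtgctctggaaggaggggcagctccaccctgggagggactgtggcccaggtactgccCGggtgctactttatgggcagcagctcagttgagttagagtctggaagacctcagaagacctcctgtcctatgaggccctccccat
PSD4, chr2:113173721-113174020, plus strand: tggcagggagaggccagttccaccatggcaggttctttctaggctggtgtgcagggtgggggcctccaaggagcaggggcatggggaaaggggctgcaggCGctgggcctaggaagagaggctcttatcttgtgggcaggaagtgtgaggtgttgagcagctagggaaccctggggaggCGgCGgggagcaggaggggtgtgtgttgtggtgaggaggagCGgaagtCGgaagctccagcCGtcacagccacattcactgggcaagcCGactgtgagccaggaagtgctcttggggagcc
The CKAP2L window holds 31 CG dinucleotides, against 3 in IL1F10, 2 in IL1RN and 7 in PSD4.

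Total counts per library ran from 2442960 to 5154627, and a level in CPM is a gene's count relative to its library size after TMM scaling. The line was checked against markers of its neuronal and embryonic kidney character. All 8 (VIM, CDH2, NEFL, NEFM, INA, PAX2, EYA1 and LIN28B) were detected in every library, with PAX2 the lowest at 1.63 to 7.89 CPM. Of 8 myeloid markers, TYROBP and AIF1 had no reads in any library, LYZ (1.86 to 5.56 CPM) and CD68 (1.53 to 6.62 CPM) were detected in every library and tested, and the list summed to 7.73 to 11.9 CPM with the core, 6.36 to 9.93 with dCas9-VP64, 7.60 to 8.78 with D1399Y and 9.57 to 12.2 with dCas9. Of 8 keratinocyte markers, KRT5, KRT14 and KRT1 had no reads, KRT10 (8.74 to 14.1 CPM) and DSG3 (3.47 to 8.89 CPM) were detected in every library and tested, and the list summed to 15.4 to 17.9, 17.4 to 18.3, 14.9 to 17.1 and 15.5 to 27.0 CPM in the same groups. dCas9 replicate 3 stood apart from the other libraries: it was the lowest of 12 for 33.1% and the highest for 30.7% of all 14613 genes tested. Across 13680 genes its log2 ratio to the mean library fell with transcript length (Spearman rho -0.61, a description across genes that share 1 library). For most members, values with the core over dCas9 are therefore also given without this library. The medians over members against dCas9 are given without it as well.

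IL1RN itself stood at 73.6, 87.9 and 89.2 CPM in the core libraries, against 4.25, 6.70 and 9.26 CPM with dCas9. The rise was 12.6-fold (log2 3.66 ± 0.26, standard error; adjusted p = 1.85e-05, edgeR). With dCas9-VP64 it was at 23.6, 19.3 and 31.3 CPM (log2 1.90 ± 0.26 over dCas9, adjusted p = 0.0749) and with D1399Y at 6.51, 7.52 and 9.32 CPM (log2 0.24 ± 0.30). With dCas9-VP64 IL1RN was called under 4 of 17 alternatives: with the replicate number as a block (adjusted p = 0.0232), with DESeq2 (5.02e-07), with no filter (0.0145) and without dCas9 replicate 3 (log2 2.15, adjusted p = 0.00832). Over the 17 the adjusted p ran from 5.02e-07 to 0.998. Without dCas9 replicate 3 the log2 value with the core was 3.91.

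No neighbour of IL1RN was called in any of 5 comparisons. Of the 32 genes, 19 had enough reads for the test, 14 on the MALL side and 5 on the DPP10 side, and 0 of the 19 passed an adjusted p of 0.05 in edgeR, DESeq2 or limma-voom. Among all 14613 genes edgeR called 0.00684% with the core against dCas9, against D1399Y and against dCas9-VP64, which is IL1RN alone each time, and 0.0% with dCas9-VP64 or D1399Y against dCas9. At an unadjusted p under 0.05, 1 member differed with the core and 1 with dCas9-VP64, each against dCas9, where 3.11% and 3.07% of all genes did. In the other 3 comparisons 0 of 19 did, where 5.89% (D1399Y against dCas9), 1.86% (core against D1399Y) and 2.11% (core against dCas9-VP64) of all genes did. Both times the member under 0.05 was FBLN7. It passed the read filter only through core and dCas9-VP64 libraries. Groups of 3 that do not overlap were also counted. With the core over dCas9 1 member lay wholly higher (3.89% of all genes) and 0 wholly lower (3.02%). With dCas9-VP64 over dCas9 1 lay higher (3.2%) and 0 lower (2.74%), and with D1399Y over dCas9 1 lay higher (3.44%) and 0 lower (3.82%). With the core 2 lay higher and 1 lower than with D1399Y (5.41% and 4.49%), and 2 higher and 1 lower than with dCas9-VP64 (5.65% and 4.63%). With 19 members, these counts are near the background shares. FBLN7 is the 1 higher with the core over dCas9 and is among the 2 higher than with D1399Y. Those 2 counts thus depend on its entry through core and dCas9-VP64 libraries. IL1RN was higher in all 3 core libraries than in the 9 others, which 0.91% of all genes were, and 0 of the 19 members were.

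**Figure D1:**
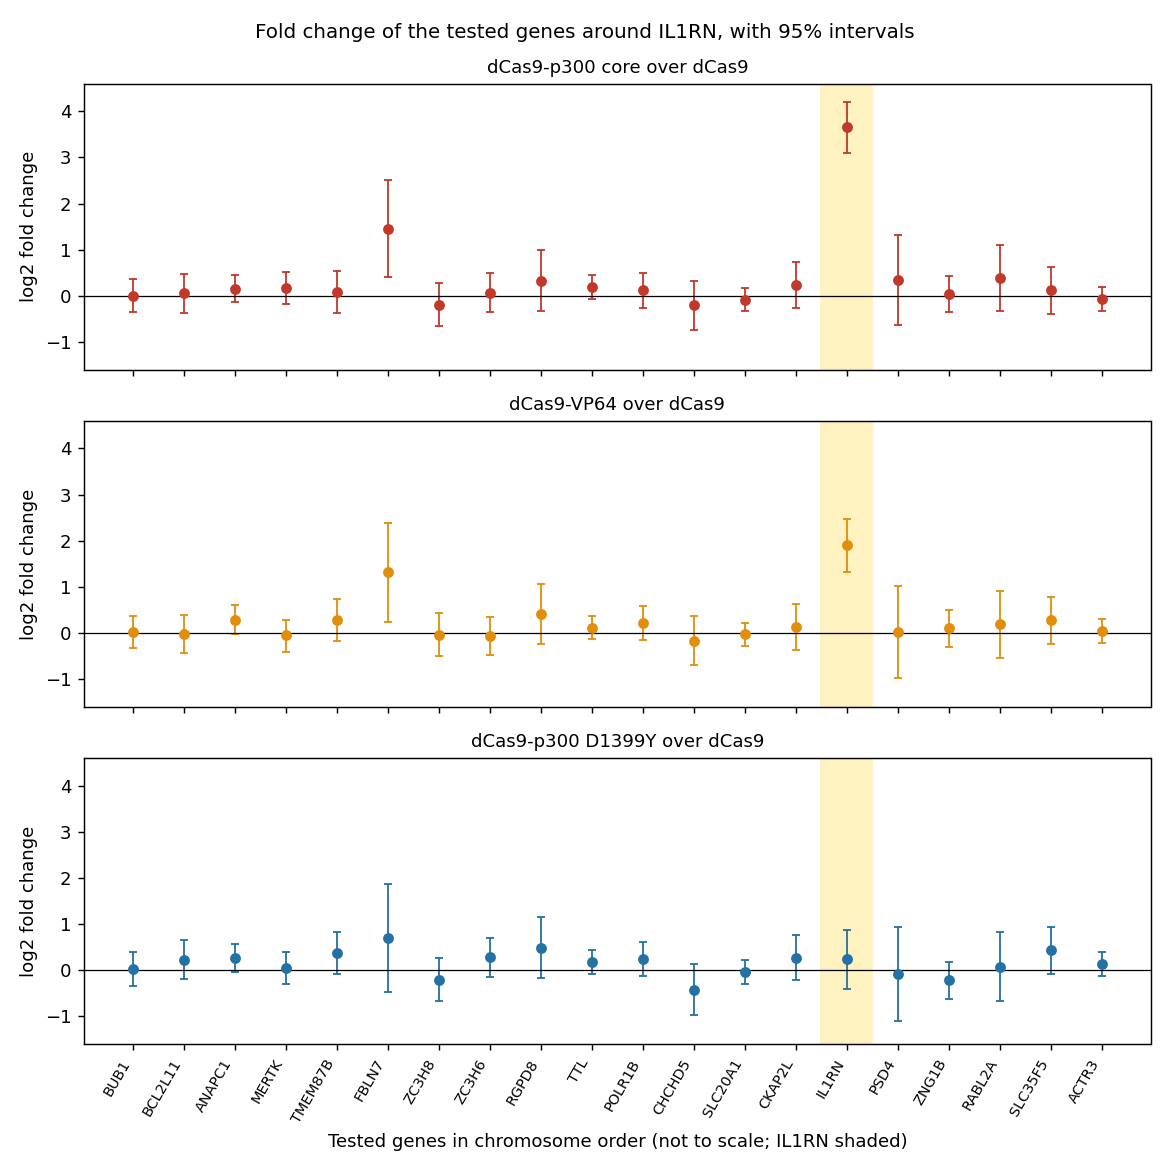
Log2 fold change (vertical axis) of the 19 tested members and IL1RN in chromosome order, for dCas9-p300 core, dCas9-VP64 and D1399Y, each over dCas9; bars are 95% intervals of the edgeR fit. IL1RN stands at 3.66, 1.90 and 0.24, and among the members only the interval of FBLN7 leaves 0 out, with the core and with dCas9-VP64. FBLN7 passed the read filter only through libraries of these groups.

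PSD4, which encodes an exchange factor for the small GTPase ARF6, is the protein-coding gene next to IL1RN on the DPP10 side. Its level was 6.62, 7.73 and 10.8 CPM with the core, 6.20, 5.34 and 8.40 with dCas9-VP64, 3.80, 6.07 and 8.78 with D1399Y, and 1.70, 10.0 and 7.78 with dCas9. All 4 groups overlapped, and the dCas9 group alone spanned almost the whole range. The log2 fold change over dCas9 was 0.35 ± 0.45 with the core (95% interval -0.62 to 1.32), 0.02 ± 0.46 with dCas9-VP64 and -0.07 ± 0.47 with D1399Y (adjusted p = 0.879, 0.996 and 0.953). Single dCas9 libraries set its direction: with the core it was -0.13 without dCas9 replicate 1, where PSD4 had 6 reads, and 0.90 without dCas9 replicate 2, where it had 42. It was 0.46 without dCas9 replicate 3. Against D1399Y the core stood at 0.42 ± 0.45. Among the libraries with pool label CV41, which lack replicate 3 of both p300 groups, the value with the core over dCas9 was 0.14. The interval with the core reaches up to 2.49-fold, below the 12.6-fold of IL1RN, and that with dCas9-VP64 up to 2.03-fold, below the 3.73-fold of IL1RN.

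**Figure D2:**
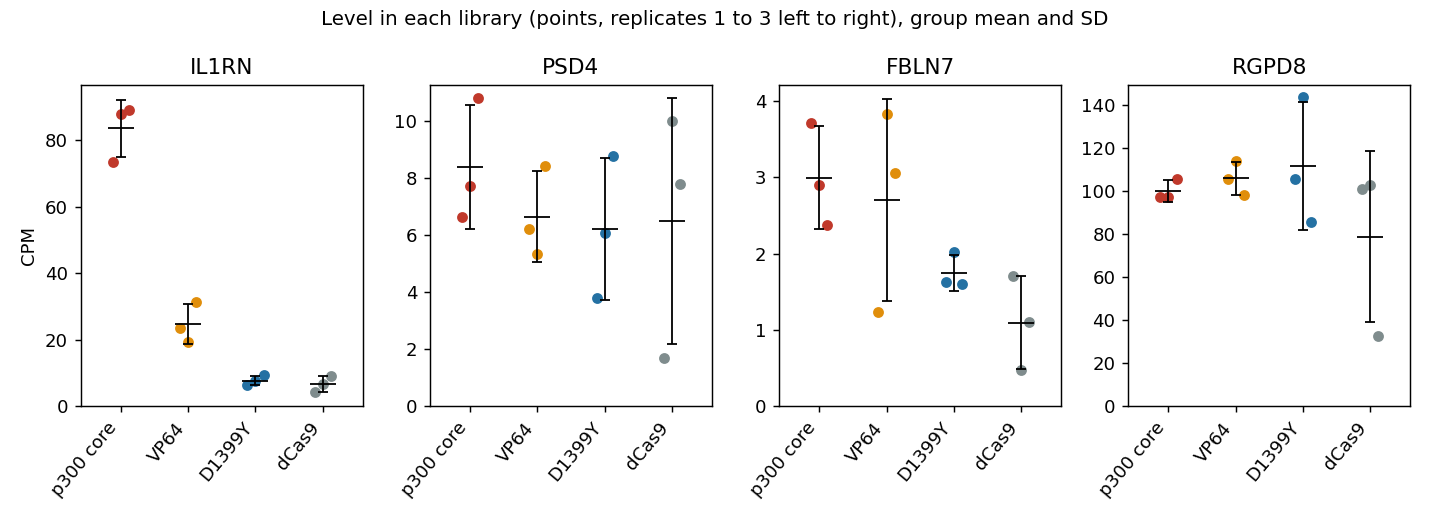
Level in CPM (vertical axes start at 0) of IL1RN, PSD4, FBLN7 and RGPD8 in each library, with the mean and SD of each group of 3. The core libraries stand apart for IL1RN, the groups overlap for PSD4, FBLN7 is low throughout, and RGPD8 has 1 low library, dCas9 replicate 3 at 33.0 CPM.

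On the other side of IL1RN the cytokine genes had almost no reads with any of the proteins. IL37, IL36G, IL36A, IL36B, IL36RN and IL1F10 had 0 reads in all 12 libraries. IL1A had 1 read in dCas9-VP64 replicate 3 and 1 in D1399Y replicate 2. IL1B had 2 reads in core replicate 2 and none elsewhere. All 8 genes together had 2 reads in the core group, 1 in the dCas9-VP64 group, 1 in the D1399Y group and 0 in the dCas9 group, while IL1RN had 1072, 294, 85 and 68. A count of 0 allows up to 3 reads, which is 0.235 CPM over the pooled core libraries, 0.252 with dCas9-VP64, 0.275 with D1399Y and 0.288 with dCas9; this covers counting error only. By that limit IL1F10, the nearest of them, had at most 0.235 CPM with the core where IL1RN had 84.1 CPM by the same pooled count. For the cytokine genes with 0 reads in a group, induction below that limit was not detectable at this depth. The limit does not cover IL1A and IL1B in the groups where they had reads.

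**Figure D3:**
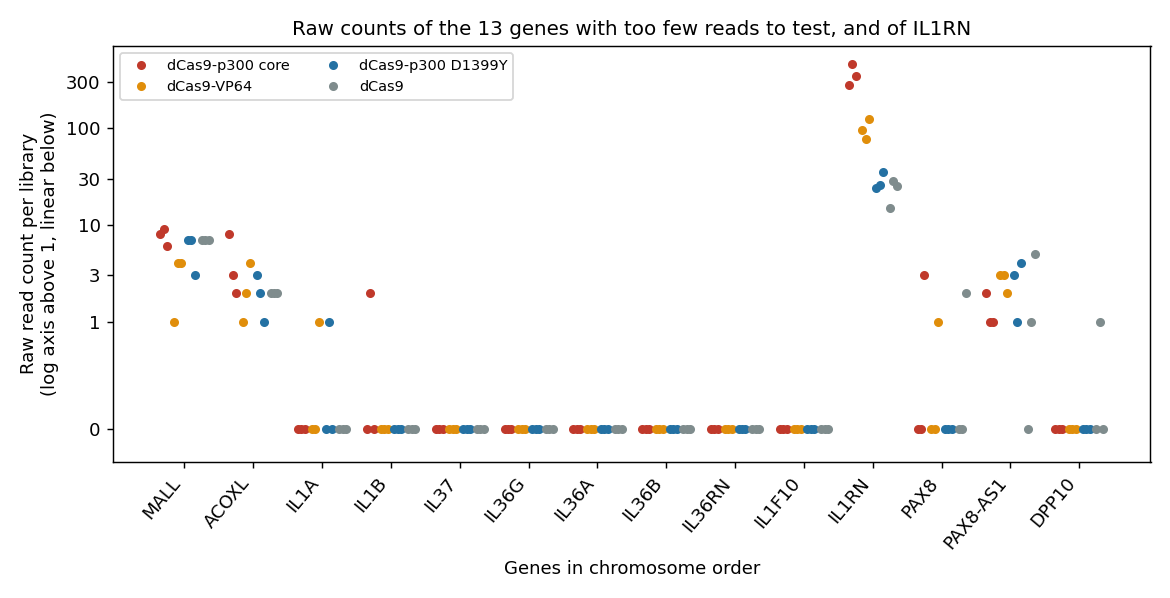
Raw read count per library (vertical axis, logarithmic above 1 and linear below) of the 13 members with too few reads for the test and of IL1RN, in chromosome order and coloured by group. IL1RN reaches 278 to 455 reads in the core libraries while the 8 cytokine genes hold 0 to 2 in every library.

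Beyond the cytokine genes, 9 protein-coding genes from IL1RN, lies CKAP2L, which encodes a spindle protein of dividing cells. It stood at 81.8, 78.6 and 77.6 CPM with the core, against 83.6, 80.1 and 36.7 CPM with dCas9. Apart from dCas9 replicate 3, these libraries lay between 77.6 and 83.6 CPM. Its log2 fold change was 0.24 ± 0.23 and, without that library, -0.05. SLC20A1, a phosphate transporter gene 11 genes away, was the steadiest of the 19 members, with a highest level 1.20 times the lowest. It was at 198, 182 and 181 CPM with the core, against 216, 195 and 180 with dCas9 (log2 -0.08 ± 0.12, 95% interval -0.33 to 0.18). In fold, that interval runs from 0.793 to 1.13.

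The next genes outward on that side did not pass either. CHCHD5, a gene for a small mitochondrial protein, was at log2 -0.20 ± 0.25 with the core, -0.17 ± 0.25 with dCas9-VP64 and -0.42 ± 0.25 with D1399Y, each over dCas9. POLR1B, an RNA polymerase I subunit gene, stood at 0.12 ± 0.17, 0.21 ± 0.17 and 0.25 ± 0.17 in the same comparisons. TTL, the ligase that restores tyrosine to tubulin, stood at 0.20 ± 0.12, 0.12 ± 0.12 and 0.18 ± 0.12. Without dCas9 replicate 3 the value with the core was -0.07 for POLR1B, 0.10 for TTL and -0.01 for CHCHD5. The dCas9-VP64 values without that library were 0.02 for POLR1B, 0.03 for TTL and 0.03 for CHCHD5. Those with D1399Y were 0.06, 0.09 and -0.22 in that order.

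Further out lie genes of cell division, survival and signalling. BUB1, a kinase of the spindle checkpoint, stood at log2 0.01 ± 0.17 with the core over dCas9, ANAPC1, a scaffold subunit of the anaphase-promoting complex, at 0.16 ± 0.14, and BCL2L11, which encodes the death-promoting protein BIM, at 0.06 ± 0.19. ANAPC1 was the 1 member whose dCas9-VP64 libraries (249, 260 and 225 CPM) and D1399Y libraries (242, 252 and 226 CPM) all exceeded those of dCas9 (220, 222 and 156 CPM). The differences, log2 0.29 ± 0.14 and 0.27 ± 0.14, did not pass (adjusted p = 0.929 and 0.633). They were 0.15 and 0.12 without dCas9 replicate 3, and the value with the core was 0.01. MERTK, a receptor kinase for the uptake of dying cells, stood at 0.17 ± 0.16 with the core over dCas9; its core libraries (45.0, 43.5 and 48.1 CPM) lay above those with dCas9-VP64 (35.2, 38.7 and 43.0 CPM), at log2 0.22 ± 0.16 (adjusted p = 1.0). In the core over dCas9 comparison TMEM87B, a Golgi protein gene, stood at 0.09 ± 0.21, and the zinc finger genes ZC3H8 and ZC3H6 at -0.19 ± 0.22 and 0.07 ± 0.20. Without dCas9 replicate 3 the values with the core were -0.15 for BUB1, -0.07 for BCL2L11, 0.10 for MERTK, -0.14 for TMEM87B, -0.21 for ZC3H8 and -0.05 for ZC3H6. BCL2L11 is listed as 18 transcripts with 22 to 336 reads each over all libraries, and the sources used here do not say how reads shared by transcripts were counted. ANAPC1 and RGPD8 have close copies elsewhere in the genome, so reads may be shared with these and their values are uncertain.

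FBLN7 was the tested member with the largest difference from dCas9, but it entered the test only through groups where it was high. It encodes fibulin 7, a secreted glycoprotein of the extracellular matrix, and lies 18 protein-coding genes from IL1RN. It had 14, 15 and 9 reads in the core libraries, 5, 15 and 12 with dCas9-VP64, 6, 7 and 6 with D1399Y, and 6, 2 and 3 with dCas9. In level this was 2.99 ± 0.675 CPM with the core, 2.70 ± 1.32 with dCas9-VP64, 1.75 ± 0.238 with D1399Y and 1.10 ± 0.611 with dCas9 (SD, n = 3). All core libraries lay above all dCas9 and all D1399Y libraries, and the dCas9-VP64 libraries overlapped every other group. Over dCas9 the log2 fold change was 1.46 ± 0.49 with the core (unadjusted p = 0.0099, adjusted p = 0.879) and 1.32 ± 0.50 with dCas9-VP64 (unadjusted p = 0.0201, adjusted p = 0.929). Against D1399Y the core stood at 0.76 ± 0.44 (adjusted p = 1.0). None of these passed over all genes. The filter sets a minimum count of 10, which no dCas9 or D1399Y library reached for FBLN7. Its unadjusted p-values, the gap between groups and its rank among the members depend on that entry and add no support. The value with the core over dCas9 was 1.04 without dCas9 replicate 2, 1.96 without dCas9 replicate 1, 1.49 without dCas9 replicate 3 and 1.59 in the CV41 pool alone. FBLN7 overlaps ZC3H8 in GRCh38; the sources used here do not give the strand setting of the counts. ZC3H8, at 24.3 CPM on average, did not share the pattern, with 29.4, 19.7 and 19.7 CPM with the core against 29.2, 23.7 and 25.6 with dCas9.

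On the DPP10 side, past PSD4, PAX8 and its antisense RNA PAX8-AS1 had too few reads for the test. PAX8, a transcription factor gene of kidney and thyroid, had 3 reads in core replicate 3, 1 in dCas9-VP64 replicate 3, 2 in dCas9 replicate 3 and none in the 9 other libraries. PAX8-AS1 had 2, 1 and 1 reads with the core, 3, 3 and 2 with dCas9-VP64, 3, 1 and 4 with D1399Y and 0, 1 and 5 with dCas9. The genes overlap in GRCh38, so reads of the pair cannot be told apart where strand was not kept. ZNG1B, of a family of zinc metallochaperones with near-identical copies, lies 3 protein-coding genes from IL1RN and was at log2 0.04 ± 0.18 with the core over dCas9. All core libraries (26.5, 27.0 and 26.3 CPM) exceeded those of D1399Y (23.3, 21.1 and 22.4 CPM) (log2 0.26 ± 0.18, adjusted p = 1.0). RABL2A, a small GTPase gene with a close paralogue, was at 0.39 ± 0.33 with the core over dCas9, with 8.74, 14.5 and 12.6 CPM in the core libraries against 6.80, 12.2 and 8.15 CPM with dCas9. Without dCas9 replicate 3 the values with the core were 0.21 for ZNG1B and 0.33 for RABL2A. Reads of ZNG1B and RABL2A may be shared with their copies, so the values of both are uncertain.

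The outermost genes of that flank did not pass either. SLC35F5, a gene of the nucleotide sugar transporter family, was at 0.12 ± 0.24 with the core over dCas9 and at -0.12 without dCas9 replicate 3. ACTR3, the Arp3 subunit of the complex that branches actin filaments, was at -0.07 ± 0.12 (95% interval -0.32 to 0.19), with 132, 128 and 128 CPM with the core, against 153, 131 and 123 with dCas9. All 3 core libraries of ACTR3 lay below those of D1399Y (148, 158 and 138 CPM) and of dCas9-VP64 (147, 137 and 138 CPM). The differences were log2 -0.19 ± 0.12 and -0.12 ± 0.12 (adjusted p = 1.0 each). DPP10, an auxiliary subunit of neuronal potassium channels, had 1 read in all, in dCas9 replicate 2.

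At the far end of the other flank MALL and ACOXL were detected but not tested. MALL, a membrane raft protein gene, had 8, 9 and 6 reads with the core, 1, 4 and 4 with dCas9-VP64, 7, 7 and 3 with D1399Y and 7, 7 and 7 with dCas9. ACOXL, which encodes an acyl-CoA oxidase-like protein, had 8, 3 and 2 reads with the core, 1, 2 and 4 with dCas9-VP64, 3, 2 and 1 with D1399Y and 2, 2 and 2 with dCas9. The groups overlapped for ACOXL. For MALL the core overlapped dCas9, and the core and dCas9 each lay above dCas9-VP64 in all 3 libraries. Among all tested genes, 5.65% lay higher with the core than with dCas9-VP64, and 2.74% lay lower with dCas9-VP64 than with dCas9. In a fit without a filter, which took in 26 of the 32 genes, 0 were called in any comparison.

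Set side by side, the tested members sat slightly above 0 with the core. Their median log2 fold change over dCas9 was 0.12 with the core, with 15 of 19 above 0, while 922 other tested genes of chromosome 2 had a median of 0.04 and all 14613 genes 0.02. With dCas9-VP64 the median was 0.11 with 13 of 19 above 0, against 0.06 on the rest of chromosome 2 and 0.00 over all genes. With D1399Y, which lacks the activity, it was 0.18 with 14 of 19 above 0, against 0.08 and 0.00. Of all genes 52.5%, 50.9% and 50.2% lay above 0 with the core, dCas9-VP64 and D1399Y. On the rest of chromosome 2 the shares were 56.2%, 58.8% and 59.1%. These 3 comparisons share the dCas9 libraries. Without dCas9 replicate 3 the medians were -0.05, 0.03 and 0.06, and 7, 11 and 12 of the 19 members lay above 0. The share of all genes above 0 was not counted without that library, so these counts have no background beside them. The core against D1399Y and against dCas9-VP64, which do not use the dCas9 libraries, each had a median of -0.03 and 8 of 19 members above 0. Of all genes 51.1% and 49.5% lay above 0 there, and on the rest of chromosome 2 43.2% and 44.4%. The members above 0 include FBLN7 in each of these comparisons. It entered the test only through core and dCas9-VP64 libraries, so it adds no support to these counts. The 6 tested members within 10 protein-coding genes of IL1RN ran from -0.07 to 0.39 with the core over dCas9.

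**Figure D4:**
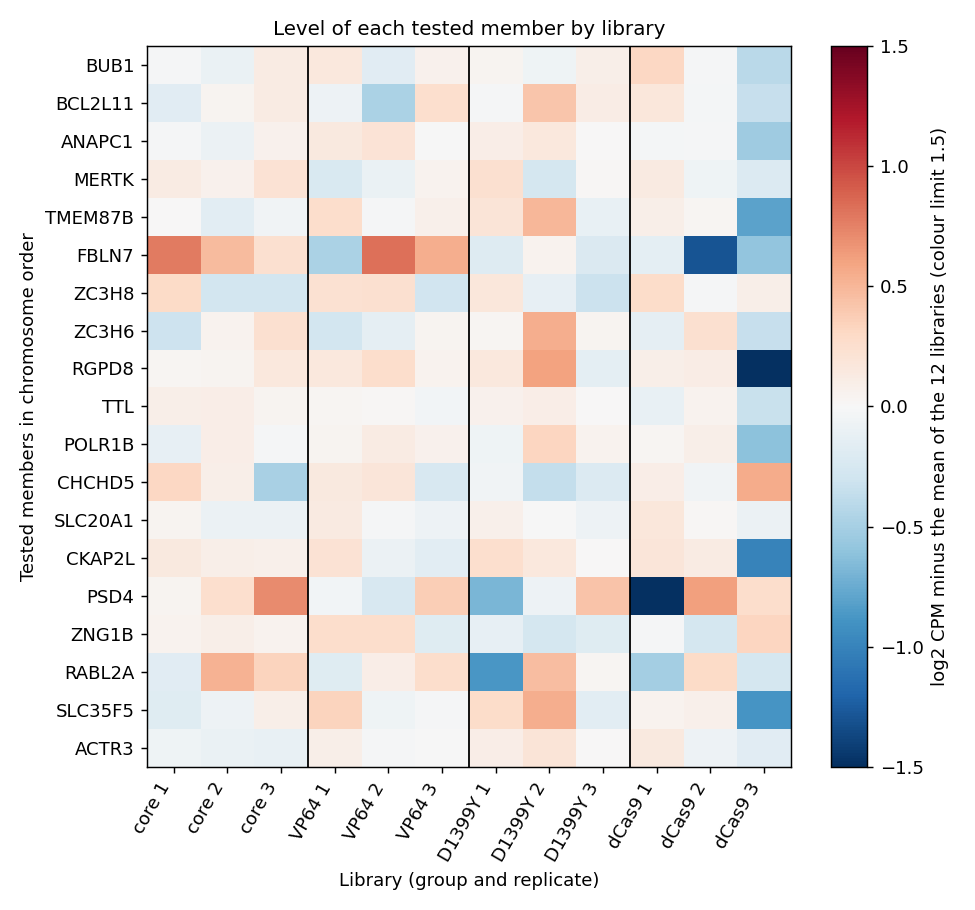
Log2 CPM of each tested member (rows, chromosome order) minus its mean over the 12 libraries (columns, by group and replicate); red is above and blue below the mean, with colours limited at 1.5. The column of dCas9 replicate 3 is blue for most genes, with a median of -0.35, while the medians of the other 11 libraries lie between -0.01 and 0.15.

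Single libraries accounted for the extremes of many members. dCas9 replicate 3 was the lowest of the 12 libraries for 11 of the 19 members, against 33.1% of all genes. D1399Y replicate 2 was the highest for 8 of the 19, against 20.3% of all genes, and the lowest for 1, against 19.8%. RGPD8, a gene of the RANBP2-like family, was at 97.2, 97.6 and 106 CPM with the core, 106, 114 and 98.5 with dCas9-VP64, 106, 144 and 85.7 with D1399Y, and 101, 103 and 33.0 with dCas9. Its log2 fold change of 0.33 ± 0.31 with the core over dCas9 was -0.03 without that library. TMEM87B had 36.7 CPM there, SLC35F5 35.9 and POLR1B 101, each its lowest level, whereas CHCHD5 had its highest, 18.9. Among the 19 members the rho with transcript length in that library was -0.25; the part of length in these values was not tested.

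Levels per kilobase of the transcript with most reads spread widely over the locus. SLC20A1 led with 57.0 CPM per kilobase as a mean of the 12 libraries, followed by BUB1 with 32.5, ANAPC1 with 27.4 and ACTR3 with 20.6. FBLN7 was the lowest tested member with 0.560, followed by PSD4 with 1.34 and by BCL2L11 with 1.45, whose reads are divided among its transcripts. The ranking is of single transcripts and not of genes. POLR1B, at 17.6, had 3572 and 3730 reads on its 2 listed transcripts, and only 1 of these is used. FBLN7, RABL2A and IL1RN also have more than 1 listed transcript. The stretch of cytokine genes is bounded by CKAP2L, at 16.6, on the one side, and by IL1RN and PSD4 on the other.

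Start-site windows of the cytokine genes held fewer CG dinucleotides than those of most other members. RefSeq windows of 300 bases were at hand for 31 of the 32 genes, and the count is of the motif CG, the same on both strands, in the richest window of a gene. The 7 cytokine genes with a window held 1 to 8 CG (median 4), and the 19 tested members 7 to 54 (median 30). Among the 19, PSD4 alone was at or below 8, as 39.7% of 27305 genes in the table were. The 5 untested genes outside the cytokine cluster held 13 to 44, and DPP10, with 1 read, held 44 in the richest of its 6 windows. IL1RN, which rose with the core, held 2 to 7 in its 3 windows, within the range of the cytokine genes and PSD4. These counts describe sequence only.

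**Figure D5:**
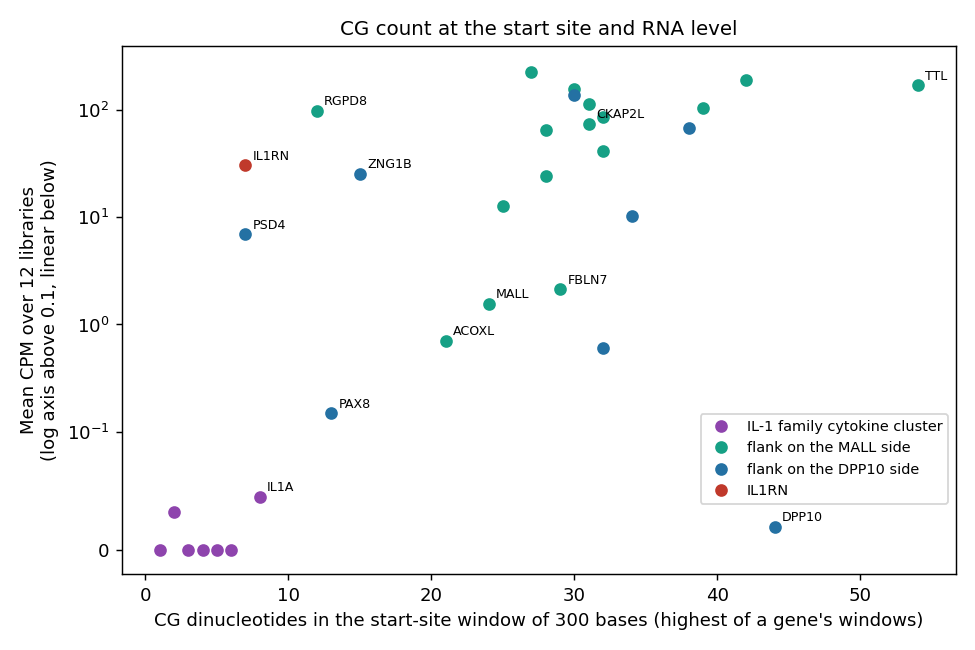
Number of CG dinucleotides in the richest 300-base start-site window of each gene (horizontal axis) and mean CPM over the 12 libraries (vertical axis, logarithmic above 0.1 and linear below). The cytokine genes lie at the lower left with at most 8, IL1RN and PSD4 share 7 but were transcribed, and DPP10 with 44 was not. The mean of IL1RN, the guide target, includes the libraries where it was raised: 83.6 CPM with the core, against 6.74 with dCas9.

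The window also holds 22 listed genes outside the 32, of which 8 were tested. Their median log2 fold change over dCas9 was 0.13 with the core (4 of 8 above 0), 0.12 with dCas9-VP64 (5 of 8) and -0.09 with D1399Y (2 of 8), and 0 of the 8 were called in any comparison, with 0 at an unadjusted p under 0.05. Of 10 genes of the interleukin 1 family and its receptors outside the window, 4 were tested and 0 called in any comparison; 1 had an unadjusted p under 0.05, with the core over dCas9-VP64.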

How the data were processed

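Raw read counts in whole numbers were deposited for each library, over 40709 RefSeq transcripts. Per the submitters' processing notes the tools were DESeq2 1.6.2, R 3.1.2, Bowtie2, SAMtools and CASAVA, with hg19 as the build and no step named; the sources used here do not give the handling of strand, duplicates or reads shared by transcripts. The 32 members, the lists and the tests were chosen with earlier results of these data known.

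Transcripts were named through RefSeq (39324) and GENCODE (516), both GRCh38, and summed per gene; 869 unnamed transcripts held 1.07% of counts. Order along chromosome 2 is that of GRCh38. Genes were tested with edgeR 4.0.16 (R 4.3.3): TMM, filterByExpr (minimum count 10, minimum total 15), 1 quasi-likelihood fit of all 12 libraries, two-sided, Benjamini-Hochberg over 14613 genes at 0.05. The named genes are the 32 members and IL1RN. Alternatives were other size factors, DESeq2 1.42.0, limma-voom (limma 3.58.1), other filters, the replicate number as a block, pool label, compared groups alone, the highest transcript per gene, and leaving out each library. Python 3.11.15, pandas 2.3.3 and matplotlib 3.10.9 drew the figures.

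The labels number 3 replicates per group and name no separate cultures, so each p-value reflects only the spread among these samples, which may be technical. No replicate pair agreed within sampling noise. Pool CV42 holds replicate 3 of both p300 groups and CV41 the 10 others.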

Additional observations from a re-analysis of the deposited data

Results flagged for a closer look

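Among the genes of the same window outside the 32, LINC02992, a long noncoding RNA gene between ACTR3 and DPP10, was counted in the dCas9-p300 core libraries alone. It had 3, 1 and 2 reads in the core libraries, 6 in all, and 0 reads in each of the 9 other libraries. It was singled out for this pattern after its values were seen, among 22 such genes of which 7 had no reads. It has too few reads for the test. How many of all 24395 features show the same pattern was not counted, so it cannot be told apart from background.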

How the results depend on the processing

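The count of 0 called members held in all 5 comparisons under each of 17 refits, and over 1606 recomputed member fold changes the lowest adjusted p was 0.231. The sign changed in 88 of these, all for values that were not called. The replicate number as a block left 0 members called in each comparison, with 1 gene called over all genes with the core against dCas9, 1 with dCas9-VP64 against dCas9, which is IL1RN (adjusted p = 0.0232), and 0 with D1399Y against dCas9. To look for pairing, log2 CPM of the better-counted genes was taken minus the group mean, and libraries of different groups were correlated. The correlation was over 0.1 in 13 of 18 same-numbered pairs (median 0.28) and in 6 of 36 other pairs (median -0.13). Centring on groups of 3 in itself pushes the other pairs down where same-numbered pairs are above 0. By this measure all 12 libraries correlated best with a library of their own number, a hint from the data and not the design. Over all genes the count with the core against dCas9 ran from 1 to 4 (DESeq2), against D1399Y from 1 to 4 (DESeq2) and against dCas9-VP64 from 0 (pool label as a covariate) to 6 (compared groups alone). With dCas9-VP64 and with D1399Y against dCas9, where edgeR called 0 (449 and 861 genes at an unadjusted p under 0.05), it ran from 0 to 1. Leaving out each of the 6 libraries of a comparison's 2 groups in turn gave 0 called members. The members' median with the core over dCas9 ran from -0.05 (without dCas9 replicate 3) to 0.25 (without dCas9 replicate 2). Within the CV41 libraries IL1RN stood at log2 3.61, PSD4 at 0.14 and FBLN7 at 1.59 with the core over dCas9. FBLN7 did not enter the fits on the highest transcript of each gene, nor those on the compared groups alone, except the core against dCas9-VP64. IL1RN with the core over dCas9-VP64 was called under 10 of 17 alternatives (adjusted p 5.97e-10 to 0.398).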
